A study of Mus musculus with 11 samples.

Results

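The neutrophil transcripts in these sorted brain cells were followed through 35 genes, taken by symbol from the 55401 rows of the deposited gene table: granule proteins, surface receptors and other genes that neutrophils are known for. All 35 symbols were found once. Of these, 34 had enough counts to be tested, and Trim10 had 0 counts in every library. Live cells positive for CD11b and CD45 were sorted from mouse brain as microglia, and their RNA was sequenced from full-length cDNA. The gate keeps any cell with both proteins, and neutrophils and monocytes carry them too.

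There were 11 libraries. Those without Tyrobp were Tyrobp-/-;NLGF (2 libraries), which lacks DAP12, the adaptor of TREM2 and other myeloid receptors, and Tyrobp-/-;Inpp5d+/-;NLGF (3 libraries), which also has 1 working copy of Inpp5d, the gene of the phosphatase SHIP1, and is called the compound mutant here. They were set against Inpp5d+/-;NLGF (3 libraries) and NLGF (3 libraries). All mice, controls included, were of the NLGF line, whose mutant App alleles, knocked in, give amyloid plaques, on a C57BL/6 background, and the sample labels give an age of 9 to 10 months. Mice without amyloid were not analysed here. No Cre line is named in the labels, and how libraries relate to animals or litters is not given in the sources used here, so a p-value here reflects only how far these libraries spread, which may be technical. Since all groups share NLGF, they are called Tyrobp-/-, compound mutant, Inpp5d+/- and NLGF from here on. The 5 libraries of the first pair of groups are the Tyrobp-deficient libraries, and the 6 of the second pair the Tyrobp-intact ones.

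Total counts ran from 29490567 to 66637052 per library. Tyrobp itself was at 3.22 to 8.94 CPM (read counts scaled to a common depth with TMM) in the Tyrobp-deficient libraries, against 1952 to 2560 CPM in the Tyrobp-intact ones. Inpp5d was at 190 to 260 CPM in the compound mutant and at 191 to 280 CPM in Inpp5d+/-, against 205 to 436 CPM in NLGF, and 2 of the 3 NLGF libraries lay above every library with 1 copy. The summed level of 9 microglia markers, including P2ry12 and Tmem119, was 43315 to 48151 CPM in the Tyrobp-deficient libraries and 39674 to 49823 CPM in the Tyrobp-intact ones, so microglial transcripts were abundant in all 11. The sample titles of the Tyrobp-deficient libraries carry numbers from a range of their own. What these numbers stand for is not given, so anything that goes with them cannot be told apart from genotype.

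Neutrophils make their granule proteins in waves while they mature in bone marrow. The serine proteases and myeloperoxidase of the azurophil granules come first, in promyelocytes, then the proteins of the specific granules under the transcription factor C/EBPε, then those of the gelatinase granules, and last the receptors of the circulating cell. Blood neutrophils keep little azurophil mRNA, and the healthy brain parenchyma holds few neutrophils outside vessels and borders. The granule class of a transcript therefore carries a stage as well as an amount.

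The promoters of 2 specific-granule and 2 azurophil genes are shown because the levels of these classes part below. Each is the 250 bases before the RefSeq start on build GRCm38.p6, 5′ to 3′ on the gene's strand. In Ngp (chr9:110419558-110419807, plus strand) and Ltf (chr9:111019042-111019291, plus strand), capitals mark the C/EBP letters TTGCNNAA on either strand. In Elane (chr10:79886062-79886311, plus strand) and Mpo (chr11:87793534-87793783, plus strand), capitals mark GAGGAAG on either strand, letters bound by the ETS factor PU.1.
Ngp: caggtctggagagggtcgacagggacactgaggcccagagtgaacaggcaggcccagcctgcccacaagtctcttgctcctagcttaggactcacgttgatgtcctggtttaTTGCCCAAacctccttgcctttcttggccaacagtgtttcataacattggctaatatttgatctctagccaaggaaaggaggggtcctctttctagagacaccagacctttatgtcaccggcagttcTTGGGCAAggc
Ltf: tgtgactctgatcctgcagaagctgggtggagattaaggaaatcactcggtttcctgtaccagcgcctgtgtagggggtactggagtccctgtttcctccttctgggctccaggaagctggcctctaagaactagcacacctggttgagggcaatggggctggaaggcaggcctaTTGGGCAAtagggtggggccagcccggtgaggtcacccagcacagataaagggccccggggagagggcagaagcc
Elane: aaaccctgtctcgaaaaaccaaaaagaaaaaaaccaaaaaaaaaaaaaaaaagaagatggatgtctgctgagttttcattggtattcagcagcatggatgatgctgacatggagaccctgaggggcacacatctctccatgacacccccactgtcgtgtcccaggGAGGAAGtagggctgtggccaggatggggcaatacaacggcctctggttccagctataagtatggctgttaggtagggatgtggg
Mpo: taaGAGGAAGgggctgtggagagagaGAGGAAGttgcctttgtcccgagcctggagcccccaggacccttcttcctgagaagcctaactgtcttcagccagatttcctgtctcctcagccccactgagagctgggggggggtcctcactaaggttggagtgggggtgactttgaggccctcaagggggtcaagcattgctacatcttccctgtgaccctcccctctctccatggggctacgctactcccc
The C/EBP letters stood at −138 and −11 from the start in Ngp and at −75 in Ltf. GAGGAAG stood at −85 in Elane and at −247 and −224 in Mpo. In the deposited coordinates these genes start inside their windows, at 110419747 for Ngp, 111019271 for Ltf, 79886247 for Elane and 87793581 for Mpo. Of the marked letters, only those at −11 in Ngp lie past that start. RefSeq windows were given for 31 of the 35 genes, all but Hp, Cebpe, Mmp9 and Wfdc21. TTGCNNAA was found in 9 of these 31 (29.03%), against 9.55% of all 27025 promoters of the same length: Anxa1, Lcn2, Ltf, Ly6g, Mmp8, Ngp, Retnlg, S100a9 and Slpi. GAGGAAG was found in 11 of 31 (35.48%), against 10.39% of all promoters: the azurophil genes Elane, Mpo, Prtn3 and Ctsg, the specific-granule genes Lcn2, Mmp8 and Pglyrp1, and S100a8, Ly6g, Itgb2l and Mmp25. CCAAT, a general promoter element searched in the same way, was found in 11 of 31 (35.48%), against 34.46% of all. The 3 motifs were counted separately, so matches of different motifs may share bases. These matches are a description of letters, not of binding.

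The amount of neutrophil transcripts ranged 1550-fold over the 11 libraries, and 291-fold without NLGF replicate 1. Summed over the 35 genes they came to 22607 and 5317 CPM in Tyrobp-/- and to 386, 11829 and 2793 CPM in the compound mutant, against 169, 77.6 and 252.97 CPM in Inpp5d+/- and 14.6, 301 and 115 CPM in NLGF. All 5 Tyrobp-deficient libraries lay above all 6 Tyrobp-intact ones, but the closest pair, compound mutant replicate 1 at 386 CPM and NLGF replicate 2 at 301 CPM, nearly met. As a share of all counts, neutrophil transcripts were 2.25% and 0.544% in Tyrobp-/- and 0.0396%, 1.20% and 0.278% in the compound mutant. The Tyrobp-intact libraries had shares of 0.00145% to 0.0305%. NLGF replicate 1 had 910 counts of the 35 genes, of which S100a8 and S100a9 made up 3.08%, against 26.8% to 48.1% in the 10 other libraries. Its counts were mostly of Chil3 (350) and S100a11 (191), with 0 of Ngp, Ltf, Lcn2, Ly6g and Retnlg. The order of the 11 libraries was the same on raw library totals, and the same without S100a8 and S100a9. In bulk RNA, a library with fewer neutrophils and one with less RNA per neutrophil cannot be told apart.

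**Figure D1:**
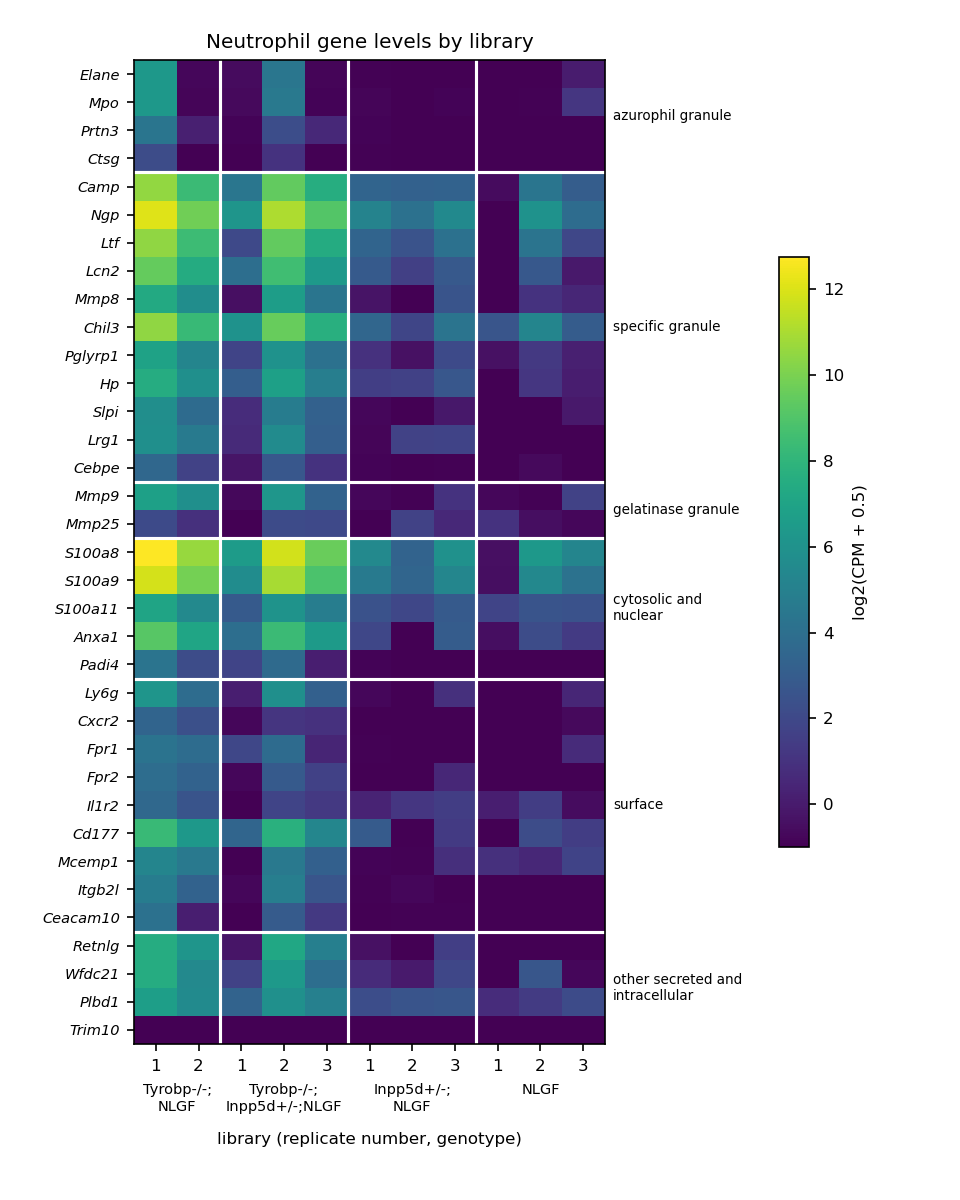
Level of each of the 35 genes (rows, by role) in each of the 11 libraries (columns, by genotype and replicate number), as log2(CPM + 0.5). Most rows are brightest in Tyrobp-/- replicate 1 and compound mutant replicate 2, and the azurophil rows at the top are bright in little else, while NLGF replicate 1 is dark in nearly all rows.

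Within a genotype the libraries differed more than many genotype means did. Summed levels differed 4.25-fold between both Tyrobp-/- libraries and 30.6-fold between compound mutant replicates 2 and 1. The spread of S100a8 was as wide, at 4265 ± 3762 CPM in Tyrobp-/- (SD, n = 2) and 1507 ± 1883 CPM in the compound mutant (SD, n = 3), against 38.4 ± 26.1 CPM in Inpp5d+/- and 39.6 ± 40.3 CPM in NLGF (SD, n = 3 each). In both Tyrobp-deficient groups, 28 of the 33 other tested genes ordered the libraries as S100a8 did, as did 9.15% of all genes tested. Elane, Mpo, Ctsg, Padi4 and Fpr1 did not.

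Averaged over both Inpp5d backgrounds, 24 of the 34 tested genes were higher in the Tyrobp-deficient libraries at an adjusted p under 0.05 and none was lower, where 2.08% of all 20390 genes tested were called higher. All 34 fold changes were positive, with a median log2 fold change of 6.19, against 0.018 over all genes tested. It was 5.92 with the 8 genes that had no counts in a whole Tyrobp-intact group set at their lower bound. The filter on low counts could be passed through the high libraries alone, so these counts describe the tested genes and carry no test of the list. Of the 34, 15 had no overlap between the 5 Tyrobp-deficient and the 6 Tyrobp-intact libraries, as had 2.7% of all genes tested, with the deficient ones higher. Among these 15, the gaps of Prtn3 and Itgb2l rested on a few counts.

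The count depended on single libraries, and so did the share of all genes called in either direction, which was 4.75% with all 11. The count was 7 without Tyrobp-/- replicate 1 and 15 without Tyrobp-/- replicate 2, with 1.65% and 1.58% of all genes called. It was 13, 12 and 14 without Inpp5d+/- replicate 1, 2 or 3, and 15 without NLGF replicate 3, with 3.32% to 3.56% of all genes called. It was 3 without the 2 libraries with most S100a8, a choice made after the data were seen, where 0.972% of all genes were called, and the 3 were S100a11, Plbd1 and Padi4.

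Of the 11 specific-granule genes, 10 were higher and Mmp8 did not pass. The 11 include Cebpe, which encodes the transcription factor of that stage and not a granule protein. Ngp, which encodes neutrophilic granule protein, was at 4281 and 868 CPM in Tyrobp-/- and at 70.5, 2128 and 532 CPM in the compound mutant. It was at 0 to 62.9 CPM (median 26.3) in the Tyrobp-intact libraries, below each Tyrobp-deficient one (adjusted p = 0.036 for a log2 fold change of 5.74 ± 1.29, SE). Camp, the gene of the antimicrobial cathelicidin, was at 1475 and 329.8 CPM in Tyrobp-/- and at 20.5, 701 and 192 CPM in the compound mutant, against 0.160 to 20.1 CPM (median 9.27) in the Tyrobp-intact libraries (adjusted p = 0.0175 for a log2 fold change of 5.81 ± 1.10, SE). The groups met closely in compound mutant replicate 1 and NLGF replicate 2. Ltf, which encodes the iron-binding lactoferrin, was at 1398 and 343 CPM in Tyrobp-/- and at 3.58, 696 and 174 CPM in the compound mutant, against 0 to 18.8 CPM (median 7.67) in the Tyrobp-intact libraries (adjusted p = 0.0402 for a log2 fold change of 5.85 ± 1.36, SE). Compound mutant replicate 1 lay inside the range of the Tyrobp-intact libraries for Ltf.

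Lcn2, which encodes the siderophore-binding lipocalin, was at 730.1 and 179 CPM in Tyrobp-/- and at 14.9, 366 and 86.1 CPM in the compound mutant, against 0 to 6.83 CPM (median 4.52) in the Tyrobp-intact libraries (adjusted p = 0.0153 for a log2 fold change of 6.33 ± 1.16, SE). Chil3, a chitinase-like protein of neutrophils and activated macrophages, was at 1421 and 307 CPM in Tyrobp-/- and at 64.0, 744 and 201 CPM in the compound mutant, against 3.15 to 38.4 CPM (median 9.47) (adjusted p = 0.0102 for a log2 fold change of 5.30 ± 0.88, SE). It was the specific-granule gene with most counts in NLGF replicate 1, at 350, a library with 15 counts of S100a8. Hp, the gene of the haemoglobin scavenger haptoglobin, was at 185 and 58.1 CPM in Tyrobp-/- and at 8.01, 113 and 29.3 CPM in the compound mutant, against 0.0160 to 6.08 CPM (median 2.10) (adjusted p = 0.00899 for a log2 fold change of 5.59 ± 0.90, SE). No library of one side overlapped the other for Lcn2, Chil3 or Hp.

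Slpi, a secreted inhibitor of neutrophil elastase, was at 55.1 and 13.5 CPM in Tyrobp-/- and at 1.15, 27.3 and 9.13 CPM in the compound mutant, against 0 to 0.446 CPM (median 0.0409) in the Tyrobp-intact libraries (adjusted p = 0.0132 for a log2 fold change of 6.99 ± 1.24, SE). Cebpe, the gene of C/EBPε itself, was at 11.5 and 2.81 CPM in Tyrobp-/- and at 0.358, 6.10 and 1.49 CPM in the compound mutant, against 0 to 0.133 CPM (median 0.0224) (adjusted p = 0.00612 for a log2 fold change of 6.95 ± 1.04, SE). Both were higher in every Tyrobp-deficient library than in any other, and both were low in compound mutant replicate 1. Pglyrp1, a peptidoglycan-binding protein, was at 119.7 and 38.1 CPM in Tyrobp-/- and at 3.07, 63.6 and 17.3 CPM in the compound mutant, against 0.256 to 3.71 CPM (median 1.05) (adjusted p = 0.0144 for a log2 fold change of 5.22 ± 0.94, SE). Lrg1, a leucine-rich glycoprotein, was at 57.9 and 25.4 CPM in Tyrobp-/- and at 1.04, 49.1 and 8.50 CPM in the compound mutant, against 0 to 2.91 CPM (median 0.0307) (adjusted p = 0.0273 for a log2 fold change of 8.70 ± 1.65, SE). These 2 overlapped through compound mutant replicate 1, which lay below Inpp5d+/- replicate 3 for Pglyrp1 and below Inpp5d+/- replicates 2 and 3 for Lrg1. Mmp8, neutrophil collagenase, was at 165 and 52.6 CPM in Tyrobp-/- and at 0.245, 101 and 19.9 CPM in the compound mutant, against 0 to 5.50 CPM (median 0.601) (adjusted p = 0.0581 for a log2 fold change of 5.82 ± 1.499, SE), with compound mutant replicate 1 below 4 of the 6 Tyrobp-intact libraries.

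Of the 4 azurophil genes, Prtn3 ordered the libraries of both Tyrobp-deficient groups as S100a8 did, while Elane, Mpo and Ctsg did not. Prtn3 did not keep in proportion to S100a8. Per 1000 counts of S100a8 it had 2.85 and 0.404 counts in Tyrobp-/- and 0.601, 1.15 and 1.26 in the compound mutant. Elane, the gene of neutrophil elastase, was at 81.2 and 0.0925 CPM in Tyrobp-/- and at 0.151, 20.8 and 0.0603 CPM in the compound mutant, with 4076 and 5 counts in Tyrobp-/- and 8, 1308 and 3 counts in the compound mutant. Mpo, which encodes myeloperoxidase, was at 80.4 and 0.0740 CPM in Tyrobp-/- and at 0.132, 23.4 and 0.0402 CPM in the compound mutant, with 4036 and 4 counts in Tyrobp-/- and 7, 1468 and 2 counts in the compound mutant. Both genes were thus high in Tyrobp-/- replicate 1 and compound mutant replicate 2 and near 0 in the other 3 Tyrobp-deficient libraries, one of which held 5317 CPM of neutrophil transcripts. In the Tyrobp-intact libraries Elane had 1, 0 and 0 counts in Inpp5d+/- and 0, 0 and 34 counts in NLGF, and Mpo had 3, 0 and 2 counts in Inpp5d+/- and 1, 1 and 113 counts in NLGF. Elane did not pass the test (adjusted p = 0.0626 for a log2 fold change of 8.56 ± 2.25, SE). Nor did Mpo (adjusted p = 0.11 for a log2 fold change of 6.78 ± 2.11, SE).

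Prtn3, the gene of proteinase 3, was at 19.8 and 0.647 CPM in Tyrobp-/- and at 0.0565, 4.19 and 0.985 CPM in the compound mutant, against 0 to 0.0409 CPM (median 0) in the Tyrobp-intact libraries. It was the 1 azurophil gene called higher (adjusted p = 0.0248 for a log2 fold change of 9.35 ± 1.72, SE), with 35 and 49 counts in the libraries of middle load, Tyrobp-/- replicate 2 and compound mutant replicate 3. Its lowest level in the Tyrobp-deficient libraries was 3 counts, in compound mutant replicate 1, against 2 counts in Inpp5d+/- replicate 1. Its exons overlap those of Plppr3, and without strand the reads of both cannot be told apart. Ctsg, which encodes cathepsin G, was at 4.08 and 0 CPM in Tyrobp-/- and at 0, 1.54 and 0 CPM in the compound mutant, against 0 to 0.0204 CPM (median 0) (adjusted p = 0.135 for a log2 fold change of 7.72 ± 2.44, SE). Ctsg had 205 counts in Tyrobp-/- replicate 1 and 97 in compound mutant replicate 2, and 1 count in the other 9 libraries together.

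Summed over the 4 azurophil genes, there were 9309 and 44 counts in Tyrobp-/- and 18, 3136 and 54 counts in the compound mutant, against 7, 0 and 2 counts in Inpp5d+/- and 1, 1 and 147 counts in NLGF. Per 1000 specific-granule counts of the same library, that was 18.7 and 0.367 in Tyrobp-/- and 1.81, 9.99 and 0.855 in the compound mutant. Between Tyrobp-/- replicates 1 and 2, the azurophil sum differed 228-fold, where the specific-granule sum differed 4.46-fold. Between compound mutant replicates 2 and 3 it differed 46.0-fold, where the specific-granule sum differed 3.93-fold. The azurophil share of all neutrophil counts was 0.820% (exact Clopper-Pearson 95% interval 0.803 to 0.837%) in Tyrobp-/- replicate 1 and 0.0153% (0.0111 to 0.0206%) in replicate 2. In the compound mutant it was 0.0878% (0.0520 to 0.139%), 0.422% (0.407 to 0.437%) and 0.0389% (0.0292 to 0.0507%). The intervals allow for counting error alone: reads carry no molecular identifiers, so copies of 1 molecule may count more than once.

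NLGF replicate 3 stood apart among the Tyrobp-intact libraries. Its 147 azurophil counts were 113 of Mpo and 34 of Elane, with 0 of Prtn3 and 0 of Ctsg, and came to 65.5 per 1000 specific-granule counts, above every Tyrobp-deficient library. The exons of Mpo overlap those of Gm11505, those of Elane no other gene. With the 2 libraries of most S100a8 left out, the sign of the averaged log2 fold change of Mpo turned to −0.96.

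**Figure D2:**
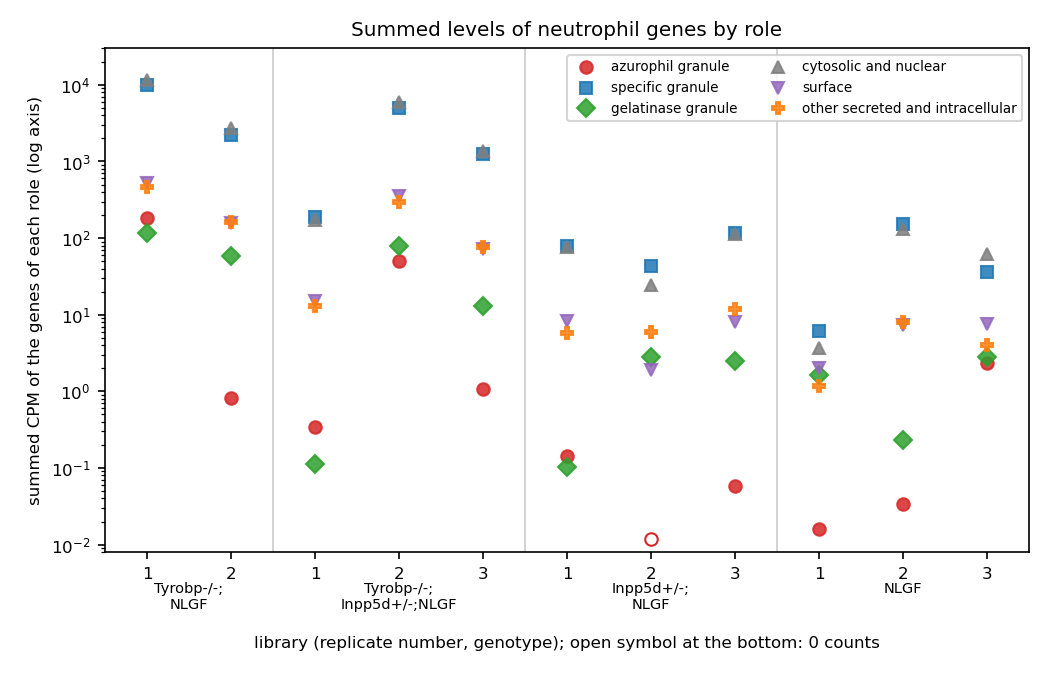
Summed CPM of the genes of each role in each library (log axis), with an open symbol at the bottom where the sum is 0. The azurophil sum (circles) is 185 CPM in Tyrobp-/- replicate 1 and 49.9 CPM in compound mutant replicate 2 and at most 1.09 CPM in the other 3 Tyrobp-deficient libraries, while specific-granule (squares) and cytosolic sums (triangles) move together.

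The gelatinase genes were split, and neither passed. Mmp9, gelatinase B, was at 114 and 56.2 CPM in Tyrobp-/- and at 0.113, 74.7 and 9.39 CPM in the compound mutant, against 0.0201 to 2.75 CPM (median 0.0992) in the Tyrobp-intact libraries (adjusted p = 0.0503 for a log2 fold change of 6.10 ± 1.504, SE). Compound mutant replicate 1 had 6 counts, fewer than the 52 of Inpp5d+/- replicate 3 and the 173 of NLGF replicate 3. Mmp25, a membrane-anchored metalloproteinase, was at 3.82 and 1.39 CPM in Tyrobp-/- and at 0, 3.98 and 3.56 CPM in the compound mutant, against 0 to 2.79 CPM (median 0.590) (adjusted p = 0.616 for a log2 fold change of 1.54 ± 1.36, SE), and its groups overlapped.

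All 5 cytosolic and nuclear genes were higher in the Tyrobp-deficient libraries. S100a8 and S100a9, the subunits of calprotectin, which sequesters zinc and manganese, were the most abundant neutrophil genes per length in each of the 5 Tyrobp-deficient libraries. On a per-length scale (TPM, computed from the counts and the table's gene lengths), S100a8 ranked 2 and 25 among all genes in Tyrobp-/- and 426, 9 and 48 in the compound mutant. S100a8 was at 6925 and 1604 CPM in Tyrobp-/- and at 94.0, 3645 and 783 CPM in the compound mutant, against 0.240 to 80.9 CPM (median 40.7) (adjusted p = 0.0306 for a log2 fold change of 6.03 ± 1.30, SE). S100a9 was at 3757 and 929 CPM in Tyrobp-/- and at 51.2, 2000.2 and 458 CPM in the compound mutant, against 0.208 to 42.6 CPM (median 21.0) (adjusted p = 0.0238 for a log2 fold change of 5.98 ± 1.21, SE). Both kept the 5 Tyrobp-deficient libraries above the 6 others by a narrow gap, with compound mutant replicate 1 and NLGF replicate 2 the closest pair.

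Anxa1, which encodes the pro-resolving protein annexin A1, was at 586 and 137 CPM in Tyrobp-/- and at 15.1, 331 and 90.3 CPM in the compound mutant, against 0 to 7.57 CPM (median 2.68) in the Tyrobp-intact libraries (adjusted p = 0.0152 for a log2 fold change of 6.43 ± 1.18, SE). S100a11, an S100 protein of many cell types, was at 129 and 43.6 CPM in Tyrobp-/- and at 6.86, 65.8 and 27.5 CPM in the compound mutant, against 3.06 to 6.91 CPM (median 4.99) (adjusted p = 0.00746 for a log2 fold change of 3.49 ± 0.55, SE). S100a11 had a base level in every library, NLGF replicate 1 included, and compound mutant replicate 1 lay just below the highest Tyrobp-intact library. Its spread was low among the Tyrobp-intact libraries but wide among the Tyrobp-deficient ones. Padi4, the peptidylarginine deiminase that citrullinates histones in extracellular trap formation, was at 18.8 and 4.03 CPM in Tyrobp-/- and at 3.07, 12.8 and 0.623 CPM in the compound mutant, against 0 to 0.0409 CPM (median 0) (adjusted p = 0.00621 for a log2 fold change of 10.25 ± 1.32, SE). Padi4 had 942 and 218 counts in Tyrobp-/- and 163, 806 and 31 counts in the compound mutant, against 2, 0 and 0 counts in Inpp5d+/- and 0 in each NLGF library. Every Tyrobp-deficient library was thus above every other one, and its highest level relative to S100a8 was in compound mutant replicate 1, the library of least load among them.

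Of the 9 surface genes, 6 were higher. Ly6g, the antigen by which mouse neutrophils are sorted, was at 71.1 and 13.9 CPM in Tyrobp-/- and at 0.622, 58.0 and 8.75 CPM in the compound mutant, against 0 to 1.41 CPM (median 0.0511) in the Tyrobp-intact libraries (adjusted p = 0.0441 for a log2 fold change of 6.28 ± 1.49, SE). Cxcr2, the chemokine receptor that draws mature neutrophils into blood and tissue, was at 10.3 and 4.62 CPM in Tyrobp-/- and at 0.0942, 1.67 and 1.47 CPM in the compound mutant, against 0 to 0.127 CPM (median 0) (adjusted p = 0.0127 for a log2 fold change of 7.94 ± 1.22, SE). Compound mutant replicate 1 fell within the range of the Tyrobp-intact libraries for both, and NLGF replicate 3 was the highest or second highest of those. Fpr1, a receptor for bacterial formyl peptides, was at 18.2 and 14.2 CPM in Tyrobp-/- and at 3.37, 13.8 and 0.844 CPM in the compound mutant, against 0 to 1.10 CPM (median 0) (adjusted p = 0.0185 for a log2 fold change of 7.32 ± 1.41, SE). For Fpr1 it was compound mutant replicate 3 that overlapped, below NLGF replicate 3.

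Cd177, a glycoprotein that binds proteinase 3 at the cell surface in humans, was at 316 and 79.0 CPM in Tyrobp-/- and at 10.8, 216 and 39.8 CPM in the compound mutant, against 0 to 7.18 CPM (median 2.21) in the Tyrobp-intact libraries (adjusted p = 0.0332 for a log2 fold change of 5.71 ± 1.26, SE). Itgb2l, a relative of the β2 integrin subunit, was at 26.4 and 9.49 CPM in Tyrobp-/- and at 0.0942, 28.7 and 5.79 CPM in the compound mutant, against 0 to 0.0804 CPM (median 0) (adjusted p = 0.0149 for a log2 fold change of 10.52 ± 1.69, SE). Neither overlapped. Itgb2l had 5 counts in compound mutant replicate 1, against 1, 4 and 0 counts in Inpp5d+/- and 0 in each NLGF library, so its gap rested on a few counts. Ceacam10, a member of the carcinoembryonic antigen family, was at 17.2 and 0.629 CPM in Tyrobp-/- and at 0, 7.32 and 1.91 CPM in the compound mutant, against 0 to 0.0288 CPM (median 0.00796) (adjusted p = 0.0181 for a log2 fold change of 8.72 ± 1.67, SE), with 0 counts in compound mutant replicate 1. Cd177 and Ceacam10 lie on chromosome 7 at 5.67 and 5.64 Mb from Tyrobp, and Pglyrp1 at 11.5 Mb, so alleles that travel with the targeted locus cannot be told apart from its loss for these 3. Fpr2, Mcemp1 and Il1r2 did not pass (adjusted p = 0.0577, 0.0825 and 0.455). Il1r2, the decoy receptor of interleukin 1, overlapped widely, at 12.1 and 5.46 CPM in Tyrobp-/- and at 0, 3.04 and 1.93 CPM in the compound mutant, against 0.175 to 2.34 CPM (median 1.29).

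Of the remaining genes, Retnlg and Plbd1 were higher. Retnlg, a resistin-like hormone of neutrophils, was at 181 and 70.8 CPM in Tyrobp-/- and at 0.358, 146 and 30.6 CPM in the compound mutant, against 0 to 2.42 CPM (median 0) in the Tyrobp-intact libraries (adjusted p = 0.028 for a log2 fold change of 10.89 ± 2.08, SE). It had 0 counts in every NLGF library. Plbd1, a phospholipase B-like granule protein, was at 105 and 48.2 CPM in Tyrobp-/- and at 9.95, 58.6 and 31.9 CPM in the compound mutant, against 1.17 to 6.02 CPM (median 4.11) (adjusted p = 0.00271 for a log2 fold change of 3.83 ± 0.49, SE), and had counts in every library. Wfdc21, a whey acidic protein family member, did not pass (adjusted p = 0.0541 for a log2 fold change of 5.19 ± 1.31, SE), and Trim10 was at 0 throughout.

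Set against S100a8 of the same library, the make-up of the signal was alike in 4 of the 5 Tyrobp-deficient libraries for the abundant genes and unlike in compound mutant replicate 1. S100a9 ran from 543 to 586 counts per 1000 counts of S100a8 over the 5 libraries, and Camp from 192 to 244.8. Ltf ran from 191 to 222 in 4 libraries and was at 38.1 in compound mutant replicate 1. Retnlg was at 26.1 to 44.1 in 4 and at 3.81 in that library, Mmp8 at 23.8 to 32.8 and 2.61, and Mmp9 at 11.998 to 35.03 and 1.20. In the other direction, Chil3 was at 192 to 257 in 4 libraries and at 680 in compound mutant replicate 1, Padi4 at 0.796 to 3.52 and 32.7, and Fpr1 at 1.08 to 8.83 and 35.9. Plbd1 and S100a11 were also highest there, at 106 and 72.9, and both had counts in NLGF replicate 1, where S100a8 had 15. Compound mutant replicate 1 held 20501 neutrophil counts, against 138913 to 1135241 in the other 4. It was also the highest of the 5 for neuron and astrocyte markers, with sums of 13.5 and 16.1 CPM. The same held for platelet (32.8 CPM), oligodendrocyte (65.4 CPM), microglia (48151 CPM) and eosinophil, basophil and mast cell markers (5.90 CPM). It was the lowest for monocyte (61.8 CPM), erythroid (0.320 CPM) and endothelial markers (7.46 CPM). The part of any of these cells in its make-up was not tested.

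**Figure D3:**
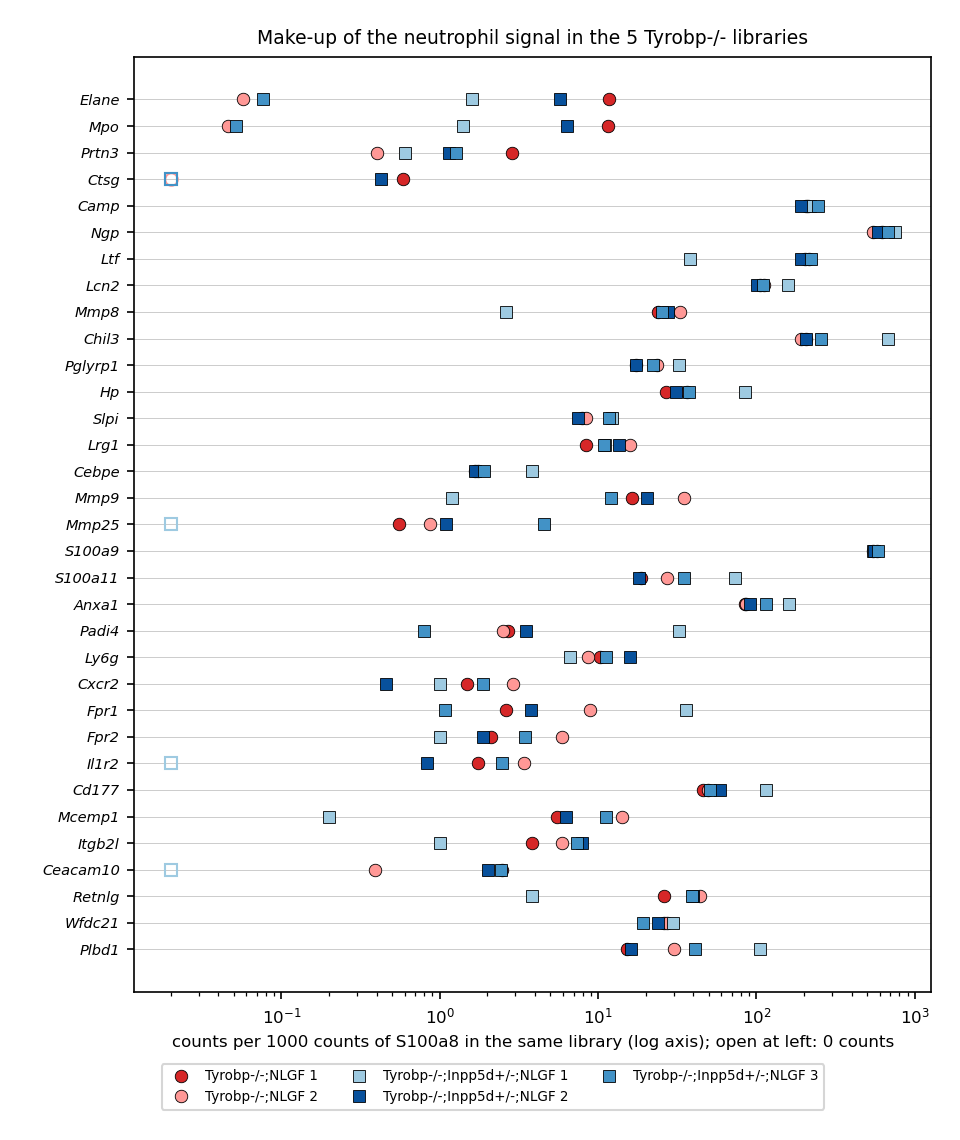
Counts of each gene per 1000 counts of S100a8 in the same library (log axis), for the 2 Tyrobp-/- libraries (circles) and the 3 compound mutant libraries (squares), with open symbols at the left for 0 counts. Symbols of a gene such as S100a9 or Camp lie on each other, Elane and Mpo spread over more than 2 orders of magnitude, and compound mutant replicate 1 (palest square) stands to the left for Ltf, Mmp8, Mmp9 and Retnlg and to the right for Chil3, Padi4 and Fpr1.

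Taken by Inpp5d background, edgeR made few calls. In Tyrobp-/- against NLGF, 4 of 34 genes were higher and none lower, where 0.255% of all genes tested were called higher: Plbd1 (log2 fold change 4.99 ± 0.73, SE, adjusted p = 0.015), Hp (7.42 ± 1.40, SE, adjusted p = 0.0474), S100a11 (4.27 ± 0.81, SE, adjusted p = 0.0475) and Padi4 (12.18 ± 2.07, SE, adjusted p = 0.0488). DESeq2 called 22, and 5.08% of all genes, and limma-voom 1, and 1.6% of all genes. The median log2 fold change was 6.97, or 6.91 with the 7 genes at 0 in every NLGF library set at their lower bound, against 0.0022 over all genes. Against a floor of 3 counts per library, Retnlg was at least 1924-fold higher in Tyrobp-/- than in NLGF, Lrg1 at least 638-fold, Itgb2l at least 275-fold, Fpr2 at least 184-fold, Padi4 at least 174-fold, Prtn3 at least 156-fold and Ctsg at least 31.3-fold. These bounds use the mean of 2 libraries that themselves differed by severalfold. The exons of Fpr2 overlap those of Fpr3, so, as for Prtn3 and Plppr3, the reads of both cannot be told apart without strand. With all 11 libraries, 0.863% of all genes were called in either direction. The count of 4 was 0 without Tyrobp-/- replicate 1, NLGF replicate 1 or NLGF replicate 2, with 0.138%, 0.656% and 0.436% of all genes called. It was 1 without Tyrobp-/- replicate 2 (0.16%), any 1 of the Inpp5d+/- libraries (0.679% to 0.737%) or NLGF replicate 3 (0.535%). It was 2 without compound mutant replicate 3 (0.86%) and 8 without compound mutant replicate 1 (1%).

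In the compound mutant against Inpp5d+/-, edgeR called 0 of 34 genes, where 0.265% of all genes tested were called higher. At an unadjusted p under 0.05 there were 29, against 13.4% of all genes. DESeq2 called 15, and 5.09% of all genes, and limma-voom called 0, and 0.937% of all genes. All 34 fold changes were positive, with a median log2 fold change of 5.04, or 4.96 with Cxcr2, at 0 in every Inpp5d+/- library, set at its bound of at least 15.5-fold. Over all genes tested the median was 0.024. For S100a8 the log2 fold change was 5.30 ± 1.76 (SE, adjusted p = 0.233), and for Padi4 8.32 ± 1.65 (SE, adjusted p = 0.0751).

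The compound mutant against Tyrobp-/- asks what 1 copy of Inpp5d does once Tyrobp is lost. The means of all 34 genes were lower in the compound mutant, with a median log2 fold change of −1.49, against 0.0097 over all genes. No gene passed in edgeR, where 0.00981% of all genes tested were called, none had an unadjusted p under 0.05, and DESeq2 called 0. The spread of load inside both groups was wider than this difference, since compound mutant replicate 2 held more than Tyrobp-/- replicate 2. These comparisons share libraries with those above.

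In Inpp5d+/- against NLGF, edgeR called 0 of 34 genes and 0% of all genes tested. At an unadjusted p under 0.05 there were 2, Lrg1 and Fpr1, a share near the 4.66% of all genes. DESeq2 called 1, and 0.142% of all genes. The median log2 fold change was 0.59, with 23 genes positive and 11 negative, against 0 over all genes. The interaction of Tyrobp and Inpp5d was called for 0 of 34 genes and 0% of all genes tested, with 4 at an unadjusted p under 0.05, against 4.70% of all genes, and 0 in DESeq2. Its median log2 value was −1.83, with 5 genes positive and 29 negative, against 0.019 over all genes. A different effect of Tyrobp loss on the 2 Inpp5d backgrounds was thus not detectable for any of them in groups of 2 and 3 libraries.

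**Figure D4:**
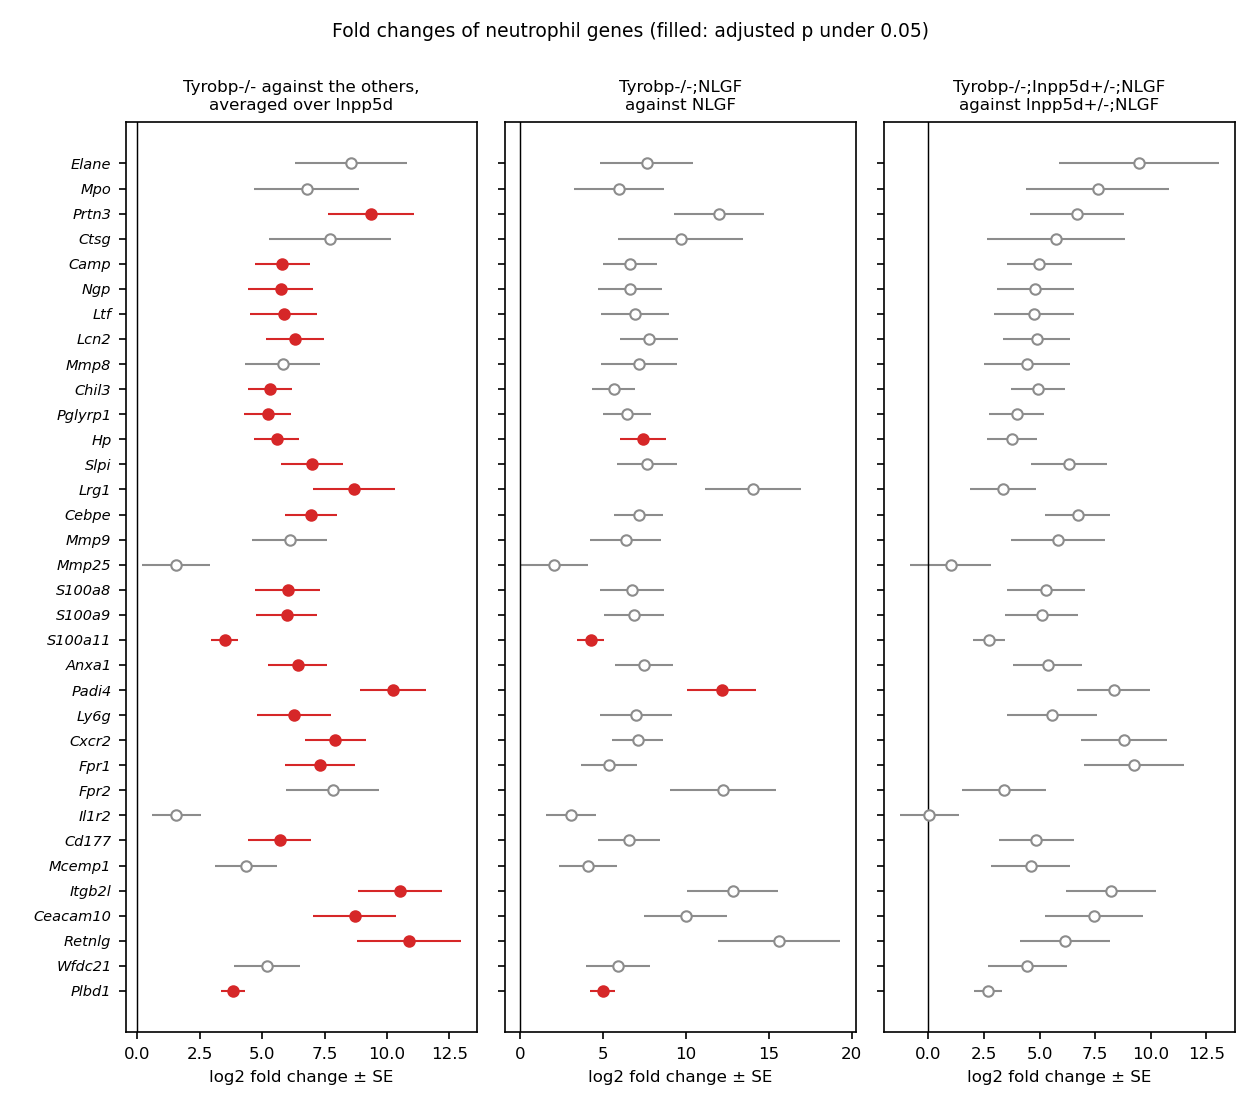
Log2 fold change ± SE of each tested gene for Tyrobp-deficient against Tyrobp-intact libraries averaged over both Inpp5d backgrounds (left), Tyrobp-/- against NLGF (middle) and the compound mutant against Inpp5d+/- (right), with filled points at an adjusted p under 0.05. All points lie right of 0, with 24, 4 and 0 filled, and fitted values of genes at 0 in a whole group depend on the fit's prior count.

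A second list of 30 neutrophil genes outside the 35, covering receptors, the phagocyte oxidase and progenitor genes, gave 29 in the table and 28 tested. In the averaged comparison 10 were higher and none lower, where 2.08% of all genes tested were called higher. The median log2 fold change was 2.10, against 0.018 over all genes. The 6 described first had low levels in the Tyrobp-intact libraries. Ltb4r1, the leukotriene B4 receptor, was at 52.5 and 13.4 CPM in Tyrobp-/- and at 3.94, 30.8 and 7.32 CPM in the compound mutant, against 0.123 to 2.10 CPM (adjusted p = 0.00719 for a log2 fold change of 4.52 ± 0.70, SE). Serpinb1a, a cytosolic inhibitor of neutrophil proteases, was at 97.9 and 14.8 CPM in Tyrobp-/- and at 1.62, 43.4 and 14.7 CPM in the compound mutant, against 0 to 1.67 CPM (adjusted p = 0.0351 for a log2 fold change of 5.91 ± 1.32, SE). Ifitm6, an interferon-inducible membrane protein, and Clec4e, the lectin receptor Mincle, were also called higher (adjusted p = 0.0248 for a log2 fold change of 4.94 ± 1.01, SE for Ifitm6, and adjusted p = 0.0495 for a log2 fold change of 7.57 ± 1.70, SE for Clec4e). Both overlapped through compound mutant replicate 1. It had 2.41 CPM of Ifitm6, against 3.37 CPM in Inpp5d+/- replicate 1. It had 0.0377 CPM of Clec4e, against 0.749 CPM in Inpp5d+/- replicate 3. Clec4e was at 9.18 and 14.6 CPM in Tyrobp-/-, not in the order of the load.

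Fcnb and Ms4a3, genes of granulocyte precursors in marrow, were the other 2 of the 6. Fcnb, ficolin B, was at 82.2 and 4.90 CPM in Tyrobp-/- and at 1.04, 12.9 and 6.17 CPM in the compound mutant, against 0 to 0.968 CPM in the Tyrobp-intact libraries (adjusted p = 0.0424 for a log2 fold change of 6.07 ± 1.43, SE). Ms4a3 was at 7.85 and 0.0185 CPM in Tyrobp-/- and at 0.0377, 1.70 and 2.59 CPM in the compound mutant, against 0 to 0.0409 CPM (median 0) (adjusted p = 0.032 for a log2 fold change of 7.62 ± 1.67, SE). Ms4a3 was thus highest in Tyrobp-/- replicate 1, with the next level in compound mutant replicate 3, not in replicate 2. Gfi1, a transcription factor of granulocyte progenitors, was below the filter, at 3.39 CPM in Tyrobp-/- replicate 1 and at 0 in each of the 10 other libraries. The summed level of 5 proliferation genes was 26.6 to 49.0 CPM in the Tyrobp-deficient libraries and 29.1 to 48.5 CPM in the Tyrobp-intact ones, and none of the 5 was called. Of these, Mki67, singled out after its values were seen, was at 5.06 and 0.573 CPM in Tyrobp-/- and at 1.43, 0.382 and 0 CPM in the compound mutant, against 0 to 1.497 CPM.

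Alox5ap, Ncf4 and Cebpd, called as well, had high levels in all libraries. Alox5ap, the activating protein of 5-lipoxygenase, was at 304 and 293 CPM in Tyrobp-/- and at 293, 285 and 242 CPM in the compound mutant, against 127 to 167 CPM in the Tyrobp-intact libraries (adjusted p = 0.000691 for a log2 fold change of 0.95 ± 0.09, SE). It did not follow the neutrophil load: compound mutant replicate 1, with least load, held as much as the rest. Ncf4 and Cebpd likewise had small, even shifts (adjusted p = 0.00388 for a log2 fold change of 0.78 ± 0.11, SE for Ncf4, and adjusted p = 0.00621 for a log2 fold change of 0.63 ± 0.10, SE for Cebpd). Alox5ap was also called in both comparisons by Inpp5d background, and Ncf4 in Tyrobp-/- against NLGF. Trem3, Ncf1, Hdc and Ifitm1 came next and did not pass (adjusted p = 0.0542, 0.0577, 0.0606 and 0.0773). Csf3r, the G-CSF receptor, was at 293 and 285 CPM in Tyrobp-/- and at 236, 277 and 366 CPM in the compound mutant, against 246 to 381 CPM, and so did not separate the libraries by neutrophil load.

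Outside the 35, 7 of the 8 named genes whose log2(CPM + 0.5) profile over the 11 libraries, centred on its mean, differed least from that of S100a8 were, in order, Ly6a2, Cd24a, Serpinb1a, Ly6c2, Ifitm6, Trem3 and Fcnb. The root mean square differences of these 7 ran from 1.48 to 1.96 on the log2 scale, against 0.349 for S100a9 and 0.493 for Ngp. Ly6c2 is best known as a monocyte antigen.

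Markers of other cell types that the gate could hold were summed in the same way. The sum of monocyte markers moved with the neutrophil genes in the Tyrobp-deficient libraries, but not every marker did. The sum of 10 of them was 543 and 250 CPM in Tyrobp-/- and 61.8, 358 and 123 CPM in the compound mutant. The Tyrobp-intact libraries had sums of 13.4 to 57.3 CPM. The sum ordered the libraries of both Tyrobp-deficient groups as S100a8 did. In Inpp5d+/- it did so too, at 34.9, 13.4 and 57.3 CPM. In NLGF it did not, at 25.6, 24.3 and 42.0 CPM. All 10 were tested and 2 were higher in the averaged comparison, Ly6c2 and Plac8, where 2.08% of all genes tested were called higher. Ly6c2 was at 213 and 45.5 CPM in Tyrobp-/- and at 5.20, 87.6 and 28.5 CPM in the compound mutant, against 0.866 to 8.01 CPM (adjusted p = 0.0183 for a log2 fold change of 4.44 ± 0.85, SE). Plac8 was at 74.1 and 58.2 CPM in Tyrobp-/- and at 17.5, 62.4 and 22.3 CPM in the compound mutant, against 0.266 to 5.13 CPM (adjusted p = 0.00841 for a log2 fold change of 4.46 ± 0.71, SE). The part of monocytes in the levels of genes that both cell types use was not tested.

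Erythroid and platelet markers, of cells that a sort for CD11b and CD45 would leave out, were low. The 9 erythroid markers summed to 0.320 to 1.22 CPM in the Tyrobp-deficient libraries and 0.266 to 1.45 CPM in the Tyrobp-intact ones, with each globin gene at or under 0.634 CPM and none of the 4 tested genes called. The 6 platelet markers summed to 13.4 to 32.8 CPM in the Tyrobp-deficient libraries and 5.27 to 16.1 CPM in the Tyrobp-intact ones. Nearly all of that was Gp9, while Ppbp and Gp6 were at 0 in every library, and none of the 3 tested genes was called.

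Lymphoid and other granulocyte markers were low or level. The 7 T and NK cell markers summed to 1.53 to 4.04 CPM in the Tyrobp-deficient libraries and 2.90 to 12.4 CPM in the Tyrobp-intact ones, with Cd3e and Cd3g at 0 throughout. Of 5 tested, 1 was lower, the NK receptor gene Klrb1c (adjusted p = 0.0295 for a log2 fold change of -7.05 ± 1.51, SE). The 5 B cell markers summed to 515 to 574 CPM and 467 to 565 CPM in the same order, almost all of it Ighm, with Ms4a1 at 0, and none of 3 tested was called. The 7 eosinophil, basophil and mast cell markers summed to 0.407 to 5.90 CPM and 0.241 to 3.70 CPM, nearly all Ccr3, with Prg2, Mcpt8, Cpa3 and Fcer1a at 0, and the 1 tested was not called.

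Brain and border cells gave small sums beside microglia. The 5 markers of border-associated macrophages summed to 6.03 to 30.1 CPM in the Tyrobp-deficient libraries and 0 to 20.3 CPM in the Tyrobp-intact ones, and none was called. The 5 neuron markers summed to 0.277 to 13.5 CPM and 0.567 to 6.44 CPM, and the 5 astrocyte markers to 3.07 to 16.1 CPM and 6.23 to 19.9 CPM, with none called. Oligodendrocyte markers, 4 in all, summed to 36.0 to 65.4 CPM and 42.0 to 76.9 CPM, mostly Mbp, and Mog was higher (adjusted p = 0.0426 for a log2 fold change of 8.43 ± 1.54, SE) at no more than 1.64 CPM. The 5 endothelial markers summed to 7.46 to 20.2 CPM and 18.6 to 34.4 CPM, and of 4 tested Flt1 was lower (adjusted p = 0.0181 for a log2 fold change of -7.64 ± 1.39, SE). Among the 9 microglia markers, all tested, Tmem119 was higher (adjusted p = 0.000326 for a log2 fold change of 0.65 ± 0.06, SE), also in both comparisons by Inpp5d background.

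**Figure D5:**
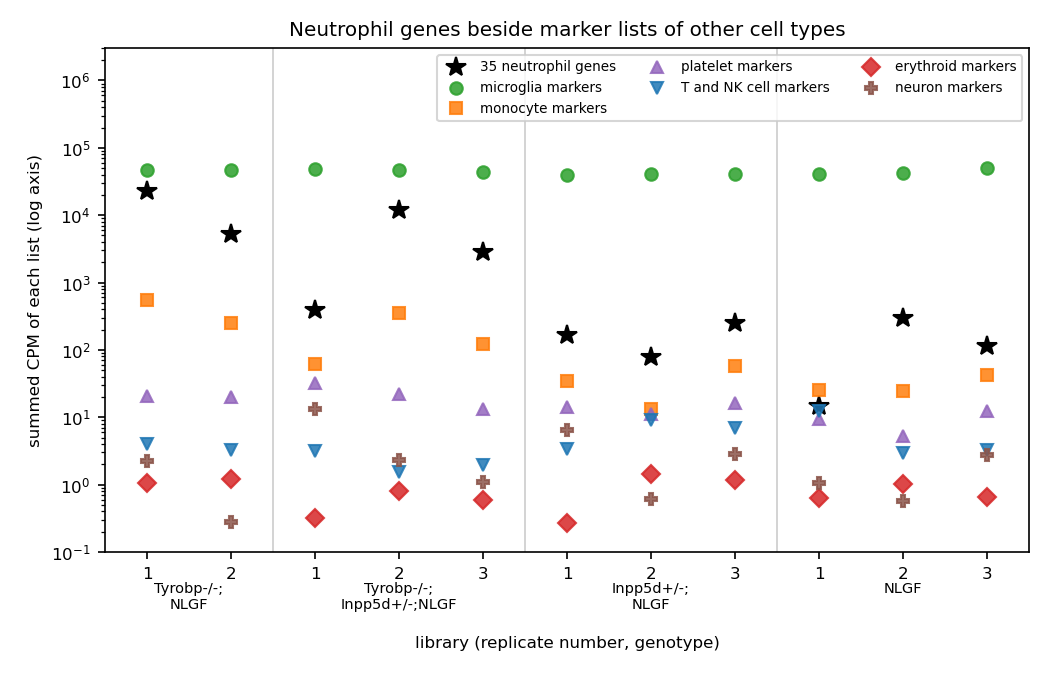
Summed CPM of the 35 neutrophil genes (stars) and of marker lists of other cell types in each library (log axis). Microglia markers are level across libraries, and platelet, T and NK cell, erythroid and neuron markers stay at or below 32.8 CPM. The monocyte sum (squares) orders the libraries of both Tyrobp-deficient groups and of Inpp5d+/- as the neutrophil sum does, but not those of NLGF.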

How the data were processed

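RNA of flow-sorted brain cells was made into libraries with the SMART-Seq v4 kit, which does not mark strand, per the labels' protocols. STAR 2.7.3a, featureCounts 1.6.4 and the builds GRCm38.p6 and mm10 are named in the submitters' processing notes. The authors deposited, per the file headers, integer read counts for each gene beside gene lengths and coordinates, with no scaling applied. No source used here gives the annotation release, the strand setting or how multiply placed reads were handled. All 37 rows of chromosome M held 0 counts.

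Genes were kept with filterByExpr (minimum count 10, minimum total 15), which left 20390. CPM values use TMM-scaled library sizes. A model with 1 coefficient per genotype was fitted over all 11 libraries by quasi-likelihood (glmQLFit and glmQLFTest of edgeR 4.0.16, under R 4.3.3). Adjusted p-values are Benjamini-Hochberg values over all genes tested, called under 0.05, and SE is the standard error derived from the test statistic. The procedure was tested on simulated data, in which the changed genes had a clear level in every group. That test does not cover genes near 0 counts in a whole group, as some are here. A floor of 3 counts corresponded to 0.0477 to 0.1 CPM. No 2 libraries were identical. Replicate numbers follow sample order and pair nothing.

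The 35 genes, their roles and the marker lists were chosen with earlier results of these data known. By rule, genes called in any comparison and a few abundant or azurophil ones get full values, and the other genes their range. Named beside them are the called genes of the second neutrophil list and the 4 next, and the 8 nearest profiles. Some genes that the rule names are not reported here. Motifs were searched in RefSeq promoter windows of build GRCm38.p6, with only the first window listed for each gene. The end of the window matched a transcript of the gene in the same orientation for 28 of 31. Alternatives tried were 2 other scalings (RLE and upper-quartile), no filter, a mean of at least 1 CPM, DESeq2 1.42.0, voom with quality weights (limma 3.58.1), fits on the compared groups alone, and each library left out.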

Additional observations from a re-analysis of the deposited data

How the results depend on the processing

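Under RLE and upper-quartile scaling and without a filter, the averaged comparison called 24, 25 and 24 of the 35 genes, against 24 as reported. The shares of all genes called in either direction were 4.63%, 4.86% and 2.6%. It called 29 with a mean of at least 1 CPM (8.39% of all genes tested, in either direction), 29 with DESeq2 (10.6%), 7 with voom (5.74%) and 3 without the 2 libraries with most S100a8 (0.972%), against 4.75% of all genes as reported. With voom, calls over all genes thus increased while those of the 35 fell. Leaving out 1 library gave 7 to 29. For Tyrobp-/- against NLGF the count of 4 became 9 with a mean of at least 1 CPM (1.98% of all genes, in either direction). It became 22 with DESeq2 (5.08%), 1 with voom (1.6%) and 0 without those 2 libraries (0.122%), against 0.863% as reported. With 1 library left out it was 0 to 8. A fit on these 2 groups alone also called 4 (0.416% of all genes), of which 1 was shared with those reported. For the compound mutant against Inpp5d+/- the count of 0 became 2 with a mean of at least 1 CPM (2.09% of all genes, in either direction). It became 15 with DESeq2 (5.09%), against 0.897% of all genes as reported, and 0 to 1 with 1 library left out. For Inpp5d+/- against NLGF, DESeq2 called 1 (0.142% of all genes), and leaving out 1 library gave 0. The compound mutant against Tyrobp-/- and the interaction stayed at 0 under every alternative run. Signs were followed gene by gene for the averaged comparison and Tyrobp-/- against NLGF, and under the alternatives run they turned for Elane and Mpo alone. In Tyrobp-/- against NLGF, Elane had a log2 fold change of −1.01 without Tyrobp-/- replicate 1 and −0.96 without the 2 libraries with most S100a8, and Mpo had −3.04 and −3.02. Leaving out each library in turn, these fold changes ran from −1.01 to 13.97 for Elane and from −3.04 to 10.68 for Mpo, highest without NLGF replicate 3. In the averaged comparison Mpo had −0.96 without the 2. Apart from the libraries left out, the cause of these changes was not tested. With 0 to 3 counts of many genes in the Tyrobp-intact libraries, depth limits the size of these fold changes. No paired analysis was possible because replicate numbers follow sample order and the labels pair no samples.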
